A study of Mus musculus with 144 samples.

Results

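The 60 brightest mouse microRNA (miRNA) probes were examined in whole blood of mice that had received multi-walled carbon nanotubes (MWCNT) or crocidolite asbestos. The probes were chosen by brightness. The background-subtracted intensity of a probe was averaged over its usable spots on each array, its median was taken over all 144 arrays, and ranks 1 to 60 of 1262 mouse probes were kept (4.75%). The rule also set aside 13 identifiers, but these ranked between 89 and 339, so 60 probes remained. The intensity that chose the probes is given as a description and was not tested. The files used here give probe identifiers without miRNA names, and 0 of the 60 identifiers matched a name in the RefSeq miRNA table, so each probe is named by its identifier and no sequence is shown.

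Each array held the blood RNA of 1 male C57BL/J6 mouse. The mice formed 18 groups of 8, by month after exposure (1, 6 or 12) and by exposure. The exposures were dispersion medium alone (DM, the negative control), MWCNT at 1, 10, 40 or 80 µg, and crocidolite at 120 µg (the positive control). Each control mouse received the dispersion medium, so no group was left untreated. Each label carries its own blood sample number but no replicate number within a group, and the replicate numbers below only name an array.

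A miRNA is a short RNA that guides a protein complex to messenger RNAs, which are then degraded or translated less. In whole blood, miRNA comes from red cells, platelets, leukocytes and plasma. A few species dominate each source, such as miR-451a and miR-144 in red cells, miR-223 in myeloid cells and platelets, and miR-150 in lymphocytes. None of the probes described here could be tied to these miRNAs, so the labelled tissue could not be checked against its markers. In whole blood, fewer cells of a type and less RNA per cell cannot be told apart.

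The 60 probes held a median of 81.8% of the summed intensity of all mouse probes on an array, with a range of 74.5% to 88.3%. All 60 were above the detection threshold on all 144 arrays, as were 411 of the 1262 mouse probes. The threshold was at most 62.6 intensity units, and the lowest intensity of any of the 60 on any array was 317.7, for probe 2005. On a single array, 48 to 60 of them (median 58) were among its own 60 brightest mouse probes. Ranked within month 1, 6 or 12 alone, 59, 60 and 58 of them were in the top 60. The identifiers were made of digits alone for 46 of the 60 (76.7%), against 427 of all 1262 mouse probes (33.8%). What separates the kinds of identifier is not given in the sources used here.

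The order at the top of the ranking carried little information. Probe 3135 ranked first with a median intensity of 65470.2, followed by 1335 (65468), ORB_0510279 (65468), 2791 (65467.7) and 2984 (65467.7). Ranks 1 to 25 spanned only 14.3 intensity units, down to 65455.8. Below them the medians fell over a wide range, to 14867 for ORB_1210499 at rank 59 and 14810.2 for ORB_1210464 at rank 60. The next probe, 3236, had 14688.2, so rank 60 marks no gap in intensity.

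Saturation was frequent among these probes, which were chosen for their brightness, but not shared by all of them. A spot was counted as saturated when its median foreground stood at the top of the scanner's scale, and a probe as saturated on an array when all its usable spots there did. Of 25918 usable spots of the 60 probes, 11454 were at the top (44.2%). Of 519133 usable spots of the other 1202 mouse probes, 6 were at the top, all of 1 probe. Saturation was thus nearly confined to the 60 probes.

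Probes 1030, 1313, 1755, 2209 and 2740, 5 of the 60, were saturated on every array, in all 2160 of their spots. A further 28 were saturated on 18 or more arrays. The other 27 were saturated on at most 10 of the 144 arrays, and 12 of the 60 had no spot at the top anywhere. Below, these 27 are called the measured probes and the other 33 the often saturated probes, with a division chosen after the saturation counts were seen. The measured probes held a median of 21.8% of the summed mouse intensity (11.3% to 28.5%), so most of the signal of the 60 lay in probes whose brightness was at least sometimes capped. The measured probe with the highest median, ORB_1008006, had 45838.5 units and was saturated on 6 arrays, and 1144, next in rank, had 41242 units and was saturated on 10.

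A capped median did not mean that a probe was capped in every mouse. Probe 3135, first in rank, was saturated on 102 arrays and fell to 5049 units on its lowest. Probe 2984 was saturated on 126 arrays and fell to 11236. By contrast, ORB_0511072 was saturated on 143 arrays and had 63557 units on the remaining one.

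The number of saturated probes differed widely between mice. It ran from 8 to 37 of the 60 per array, with a median of 25. The month medians were 27, 24 and 24.5 at months 1, 6 and 12. The lowest value belonged to a DM array of month 6, the group in which the counts ran from 8 to 31 with a median of 20. In DM of month 1 the median was 28 (12 to 33), and in DM of month 12 it was 24 (21 to 27), so the DM groups overlapped. Scan day moved with the count as well, with medians from 19.5 on day 6 to 31 on day 7, which held 5 arrays. The part of scan day in the difference between months was not tested for this count.

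In median foreground, probes at the top of the scale have no measured differences between mice, and their values show what scaling alone does. By mean foreground, 244 of the 2160 spots of the 5 always saturated probes were at the top. On the unscaled log2 scale the 5 always saturated probes lay between 15.9972 and 15.9986 on all arrays. In the deposited table the same probes ran from 15.09 to 17.66. Their SD within groups there was 0.415, equal to the SD of the constant that the table adds to each array (0.415), and their values correlated with that constant at r = 1 over the 144 arrays. The constants ran from -0.91 to 1.66.

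Differences of these 5 probes between groups of the table are therefore differences between the constants. In the table, all 5 always saturated probes were 0.60 higher on the log2 scale in DM at month 6 than at month 1 (limma, highest adjusted p = 0.024) and were called changed. A total of 14 of the 60 probes and 24.8% of all tested probes were called there, and the median of all tested probes moved by 0.318. Between months 6 and 12 in DM the 5 probes fell by 0.52 (adjusted p = 0.0542), which is under the fold limit. In the quantile normalized values used below, the 5 probes ran from 15.20 to 16.00, with an SD within groups of 0.126.

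The spread between mice of a group differed strongly among the 60. The SD within groups, on the log2 scale after quantile normalization, had a median of 0.407 for the measured probes (0.227 to 1.04), 0.129 for the often saturated probes and 0.217 for the other tested probes. The smallest values belonged to ORB_0511565 (0.0246) and 1335 (0.0254), both saturated on at least 141 arrays. In the deposited table the 3 medians were 0.415, 0.408 and 0.425, so the small spread of the often saturated probes was seen with quantile normalization and not in the table.

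Spots of 1 probe on the same array were close to each other. Their SD had a median of 0.146 on the log2 scale for the measured probes and 0.268 for the other tested probes. For 4 of the measured probes, 1763, 2005, 1385 and ORB_1209024, the SD between mice was over 5 times the SD between spots. The SD between mice includes the variation between arrays as well as that between animals.

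Probes 1763 and 2005 had the widest spread, with SDs within groups of 1.04 and 1.02. Both had a low tail. A total of 12 arrays lay more than 2 log2 units below the median of 1763, 10 below that of 2005, 5 below that of ORB_1008006 and 3 below that of 2280. The normalized scale ended at 16.00, so no comparable room lay above the medians, and the tails below and above cannot be compared. The lowest arrays of 2005 were month 1, 80 µg, replicate 3 (9.77), month 6, DM, replicate 4 (9.89), month 6, 10 µg, replicate 7 (9.99) and month 1, 40 µg, replicate 4 (10.22). Their intensities were 415, 317.7, 626.7 and 853 units, all above the threshold. Low values were thus found in control and exposed mice and at both early months.

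The group levels of 1763 showed the same tail. In DM at month 1 its 8 arrays were close, from 14.89 through a median of 15.12 to 15.43. At month 1 and 40 µg they ran from 11.44 through 13.71 to 14.78, and at month 6 in DM from 10.77 through 13.73 to 15.57. The highest group mean was 15.22 (month 12, crocidolite) and the lowest 13.39 (month 1, 40 µg). For 2005, the group means ran from 13.31 (month 1, 80 µg) to 14.72 (month 12, 10 µg), and 4 groups had an SD above 1.7 while others had one near 0.3. Single low arrays of 2005 were found in 1 µg at month 6 (10.80) and crocidolite at month 6 (12.14) too, while all 8 arrays of 40 µg at month 6 were at or above 14.10. In the order of these means, neighbours differ by less than the spread within the groups.

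The arrays low in 2005 were also low in some other probes and high in others. Of the 4 arrays lowest in 2005, all were among the 5 lowest of 144 in ORB_1008006, at 12.50, 12.89, 12.96 and 13.15. The same 4 arrays were among the highest in 2936, at 15.80, 15.88, 15.50 and 15.69, although 2936 and 2005 had no negative correlation without scaling (r = 0.07 over the 144 arrays). In 1385 they were among the 4 highest arrays too, at 15.90, 15.57, 15.88 and 15.90. All 4 were dimmer than usual, with a brightness (mean unscaled log2 intensity over the 411 mouse probes above threshold everywhere) of 9.20, 8.75, 9.45 and 9.60 against a median of 10.03 over the 144 arrays, and the part of dimness in these values was not tested. In 1763 they stood at places 2, 5, 10.5 and 6 from the lowest of 144, with tied arrays sharing a mean place.

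Co-variation of the 27 measured probes was described over the 144 arrays after group means were removed. The arrays share slides, brightness and scaling, so these correlations are a description. Over 351 pairs, r ran from -0.78 to 0.90 with a median of -0.03. A total of 34 pairs (9.69%) were above 0.5 and 37 (10.5%) below -0.5. Among 681 other tested probes that were never saturated, 3.06% and 2.08% of 231540 pairs passed these limits.

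The negative correlations depended on the scaling. With trimmed mean scaling, 48 pairs were above 0.5 and 7 below -0.5. With no scaling, 209 were above 0.5 and 0 below -0.5, and the median was 0.56. The pair lowest in r, 2936 and 2005, had r = -0.78 (rho = -0.56) after quantile normalization, -0.64 with trimmed mean scaling and 0.07 with no scaling. Positive correlations of the closest pairs did not depend on it. ORB_1008006 and 2594 had r = 0.90 (rho = 0.75) in the values used here and 0.93 with trimmed mean scaling, and within single scan days r ran from 0.57 to 0.96.

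Grouping by average linkage at r = 0.5 placed 23 of the 27 measured probes in 8 blocks. The largest block held ORB_1008006, 1763, 2594, 2005 and ORB_1209024, with pairwise r from 0.47 to 0.90. Its mean correlated with the brightness of the array at r = 0.21, and the part of brightness in the block was not tested. Of the 681 other probes, 38 correlated with the mean of the block above 0.7 and 31 below -0.7. Within this block the widest probes, 1763 and 2005, were linked less closely to each other (r = 0.61, rho = 0.42, within scan days 0.10 to 0.80) than ORB_1008006 and 2594 were. The next block, 1144, 2282, 2280 and 3257, had r from 0.43 to 0.73 within it and the highest correlation with array brightness (r = 0.40).

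The other blocks were smaller. Probes 1044, 2936 and 3024 formed one (r = 0.56 to 0.67), and 1311, 3169 and ORB_1210464 another (r = 0.56 to 0.62). Probes 1885 and 1385 were the closest of the remaining pairs, at r = 0.85 and rho = 0.84, and at 0.71 to 0.90 within scan days. Probes 2281, ORB_1112368, 3040 and 3100 joined no block. Membership changed with the scaling. With trimmed mean scaling or in the deposited table, 2281 joined a block of 4, 3100 a block of 3, and 2280 moved to the largest block, then of 6. With no scaling, 19 probes formed 1 block, and without the 2 arrays farthest from the median brightness, 2280 was in a block of 2.

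Differences between months were tested next. A probe was called changed when its p in limma was below 0.05, its p adjusted over all 742 tested probes below 0.10 and its fold at least 1.5. A probe that met the first 2 limits is said to have passed without the fold limit. Month and scan day were not independent. Days 1 and 2 held no array of month 12 and days 4 and 7 none of month 6, while days 3, 5 and 6 held all 3 months.

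Over all exposures, several of the 60 probes differed by small amounts between months. From month 1 to month 6, 19 of the 60 passed without the fold limit, 7 higher and 12 lower, against 36.4% of all tested probes. None of the 60 was called, against 0.404% of all tested probes, and 22 had an unadjusted p below 0.05, against 39.2% of all. From month 1 to month 12, 14 passed, 5 higher and 9 lower, against 34.6%, and 1 was called (1.75% of all). From month 6 to month 12, 8 passed, 3 higher and 5 lower, against 17.3%, and 1 was called (0.135% of all). The often saturated probes, whose values are capped, count in these shares. Of the 27 measured probes 11, 12 and 7 passed (40.7%, 44.4% and 25.9%), and their share was not tested against that of all probes. The median difference of the 60 was 0.01 in each comparison.

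ORB_1210499 fell by the clearest margin. Its values ran from 13.35 through a median of 14.10 to 14.89 at month 1, from 13.15 through 13.82 to 14.62 at month 6 and from 13.18 through 13.63 to 14.23 at month 12 (48 mice each). The ranges overlapped, while the medians stepped down. The mean fell by 0.32 on the log2 scale to month 6 (SE 0.06, limma, adjusted p = 6.47e-06) and by 0.48 to month 12 (SE 0.06, adjusted p = 1.03e-11). It was lower at month 12 in 6 of 6 exposures, by -0.40 to -0.60, and within the 5 scan days with arrays of both months, by -0.40 to -0.51. Of these days, day 7 had 1 array of month 1. Both differences were below 1.5-fold. Among the measured probes, ORB_1210499 had the largest share of its variance within groups associated with scan day (19.5%). Its step from month 6 to month 12 did not pass with scan day as a term (-0.13, adjusted p = 0.283). With spots at the top of the scale left out it did not pass either (-0.06, adjusted p = 0.608). By exposure, that step was 0.11 at 40 µg and ran from -0.32 to -0.04 in the others.

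Probes 1044 and 3024, of 1 co-varying block, rose, while the third probe of that block, 2936, did not. Its means were 14.73, 14.66 and 14.56 at months 1, 6 and 12. For 1044 the means were 14.70 ± 0.23, 14.95 ± 0.26 and 14.95 ± 0.20 at months 1, 6 and 12 (SD, n = 48), and the rise to month 6 was 0.25 (SE 0.05, limma, adjusted p = 1.33e-05). For 3024 they were 14.08 ± 0.27, 14.27 ± 0.28 and 14.39 ± 0.21, with a rise to month 12 of 0.31 (SE 0.05, adjusted p = 1.24e-06). The later months were higher than month 1 for 1044 and 3024 within every scan day with arrays of both, by 0.05 to 0.50. The 0.50, for 3024, was on day 7, which had 1 array of month 1. By exposure, the difference to month 6 ran from 0.005 (80 µg) to 0.42 (10 µg) for 1044. For 3024 it ran from -0.03 (40 µg) to 0.45 (DM). To month 12, both probes were higher in every exposure, by 0.17 to 0.53. When the spots at the top of the scale were left out before normalization, the rise to month 6 was no longer past the threshold for 1044 (0.11, adjusted p = 0.379) or 3024 (0.01, adjusted p = 0.93), although 3024 itself had no such spot.

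Probe 2005 was the one called between months 1 and 12. Its values ran from 9.77 through a median of 14.26 to 14.94 at month 1 and from 11.44 through 14.72 to 15.28 at month 12. The ranges overlapped almost fully, and the low tail was shorter at month 12. The mean rose by 0.64 (SE 0.21, limma, adjusted p = 0.0116), from 13.87 ± 1.13 to 14.51 ± 0.63 (SD, n = 48). The difference was 0.31 to 1.18 within the 5 scan days that held both months, with the 0.31 on day 7, which had 1 array of month 1. It ran from 0.41 to 1.32 in the exposed groups and was -0.28 in DM. The call was lost without scan day 2 (0.58), 4 (0.60, adjusted p = 0.104) or 5 (0.56), and with scan day as a term (0.55, adjusted p = 0.0912).

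Probe 1763 was the one called between months 6 and 12. Its mean rose by 0.69 (SE 0.21, limma, adjusted p = 0.0177), from 14.19 ± 1.16 to 14.88 ± 1.00 (SD, n = 48). Within the 3 scan days that held both months, the difference was -0.31, 0.91 and 1.67, the first with 2 arrays of month 6. The call was lost without scan day 1 (0.58), 4 (0.54, adjusted p = 0.21) or 6 (0.51, adjusted p = 0.14). Probe 3257 had the smallest p in that comparison and fell by 0.21 (SE 0.06, adjusted p = 0.00661), below the fold limit.

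In DM mice alone, fewer probes passed and the differences that passed were of larger size, at a larger SE (a median of 0.202 against 0.0826 for the measured probes). Whether DM differed from the other exposures between months was tested with the exposure by month term below. From month 1 to month 6, 7 of the 60 passed without the fold limit (5 higher and 2 lower, against 13.5% of all tested probes) and 3 were called (1 higher and 2 lower, against 3.1%). Probe 1763 fell by 1.74 (SE 0.52, limma, adjusted p = 0.0313), from 15.15 ± 0.20 to 13.41 ± 1.61 (SD, n = 8). Probe 1885 ran from 14.52 through a median of 15.43 to 16.00 at month 1 and from 13.30 through 14.54 to 15.35 at month 6. It fell by 0.88 (SE 0.34, adjusted p = 0.0885). ORB_1210464 ran from 12.72 through 13.53 to 14.36 and then from 13.58 through 14.16 to 15.77, and rose by 0.78 (SE 0.30, adjusted p = 0.0877). The DM groups overlapped for each of these 3 probes.

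These calls lay close to the threshold. None of the 60 was called without month 6 DM replicate 4 or without replicate 8, and 1 was called without month 6 DM replicate 3 or month 1 DM replicate 1, 2, 3 or 6. The differences kept their direction when any 1 of the 16 arrays was left out, between -2.04 and -1.36 for 1763, between -1.01 and -0.70 for 1885 and between 0.58 and 0.89 for ORB_1210464. Replicates 3 and 4 were the dimmest of the 144 arrays. Without both of them none was called, with -1.498 for 1763 (adjusted p = 0.156), -0.98 for 1885 (0.161) and 0.57 for ORB_1210464 (0.365). Replicate 4 was one of the arrays lowest in 2005, and replicate 8 was the lowest in 1763 (10.77). Under the unmoderated 2-group test named in the methods, 9 of the 60 had an unadjusted p below 0.05 and none was called.

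From month 1 to month 12 in DM, 4 of the 60 passed without the fold limit, 3 higher and 1 lower, against 6.2% of all tested probes. None was called (2.96% of all). An unadjusted p below 0.05 was found for 6 in limma and 8 in the 2-group test. Of all 742 tested probes, 104 and 111 had one. Probe 3024 ran from 13.75 through 13.92 to 14.16 at month 1 and from 14.10 through 14.52 to 14.82 at month 12, so the groups overlapped only at the edge. It rose by 0.53 (SE 0.13, adjusted p = 0.00362), and 1044 rose by 0.45 (SE 0.11, adjusted p = 0.00501). With spots at the top of the scale left out, 3024 rose by 0.46 (adjusted p = 0.275). From month 6 to month 12 in DM none of the 60 passed or was called (1.62% and 0.27% of all). An unadjusted p below 0.05 was found for 3 in limma and 2 in the 2-group test, against 96 and 43 of all 742. ORB_1210464 had the smallest p there and differed by -0.76 (SE 0.30, adjusted p = 0.191), from 14.38 ± 0.74 to 13.62 ± 0.35.

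Exposure was compared with DM of the same month for each of 5 exposures, in 15 comparisons. None of the 60 probes was called in any of them, and none passed without the fold limit. Among all tested probes, calls were made only for 80 µg at month 6 (0.27%), where 3.37% passed without the fold limit. An unadjusted p below 0.05 in limma was found for 0 to 9 of the 60, against 1.75% to 20.2% of all tested probes, and in the 2-group test for 0 to 8. The 9 were found for 40 µg at months 1 and 6, against 10.6% and 16.6% of all. Over all months, again 0 of the 60 were called or passed in the 5 comparisons with DM (0% of all tested probes were called in each). In limma, 1 to 7 of the 60 were below 0.05 unadjusted, against 4.85% to 16.7% of all tested probes.

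How much change these comparisons could have missed is given by their 95% intervals. Of 405 differences of the 27 measured probes from DM within a month, 221 (54.6%) had an interval wholly inside 1.5-fold in either direction. For 8 of the 27 this held in all 15 comparisons. Over all months it held for 116 of 135 differences (85.9%), and for 21 of the 27 probes in all 5 comparisons. The often saturated probes are left out of these counts because the scale caps them.

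Among the measured probes, the largest difference from DM was that of 1763 at month 1 and 40 µg. There the mean was 13.39 ± 1.29, against 15.15 ± 0.20 in DM (SD, n = 8), and the groups did not overlap, with 14.78 as the highest exposed and 14.89 as the lowest DM value. The difference was -1.76 (SE 0.52, 95% interval -2.79 to -0.74, limma, adjusted p = 0.162), while 9 of the 60 probes and 79 of all tested probes had an unadjusted p below 0.05 in that comparison. Its mean at month 1 was 14.16 ± 1.55 at 80 µg, 14.52 ± 0.33 at 10 µg, 14.63 ± 0.78 at 1 µg and 15.05 ± 0.59 with crocidolite. The level at the highest dose thus lay between those of DM and 40 µg.

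At month 6, ORB_1210480 came nearest to the threshold. At 80 µg it ran from 13.69 through a median of 14.09 to 14.62, and in DM from 14.36 through 14.67 to 14.94. The groups overlapped at the edge. This DM group held the 2 dimmest of the 144 arrays, replicates 3 and 4, and replicate 4 stood at the highest DM value (14.94). The difference was -0.50 (SE 0.17, 95% interval -0.83 to -0.17, limma, adjusted p = 0.102), and with slide as a random block the adjusted p was 0.0808. At month 12, 1385 had the smallest p at 80 µg, with 13.76 ± 0.98 against 14.65 ± 0.35 in DM (difference -0.89, SE 0.38, 95% interval -1.63 to -0.14, adjusted p = 0.717).

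A trend over MWCNT dose was tested as a linear contrast in log2(dose + 1), scaled to the change from 0 to 80 µg. It passed for 0 of the 60 probes at months 1, 6 and 12, against 0%, 1.62% and 0% of all tested probes, and 9, 8 and 2 of the 60 had an unadjusted p below 0.05, against 11.5%, 22% and 5.66% of all. ORB_1210480 had the smallest p at month 6, with -0.41 (SE 0.14, limma, adjusted p = 0.105).

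Crocidolite at 120 µg and MWCNT at 40 µg differ in dose, and the values are given side by side. None of the 60 was called at any month (0% of all tested probes). At months 1, 6 and 12, 7, 1 and 2 had an unadjusted p below 0.05 in limma. The shares of all tested probes were 7.14%, 1.89% and 3.91%. The smallest adjusted p was 0.345, for 2733 at month 1 (-0.30), a probe saturated on 51 arrays, and the difference turned to 0.11 when spots at the top of the scale were left out. Of the 81 differences of measured probes, 50 (61.7%) had an interval inside 1.5-fold. The test of whether exposure effects differed between months passed for 0 of the 60, with 3 of them (2733, 1144 and 1763) and 32 of all 742 tested probes below 0.05 unadjusted, and a smallest adjusted p of 0.838. Over all months, 2516 was the closest of the 60 to a difference between crocidolite and DM, at -0.19 (SE 0.07, 95% interval -0.33 to -0.06, adjusted p = 0.181).

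The place of an array on its slide moved with exposure. DM, 10 µg and 80 µg lay at positions A or C on 24, 24 and 23 of 24 arrays, and 1 µg, 40 µg and crocidolite at B or D on 23, 23 and 24 of 24. For these last exposures, position and exposure cannot be told apart in the comparison with DM. Between the 2 sets of groups 0 of the 60 were called (0% of all tested probes), with 4 of the 60 and 12.1% of all tested probes below 0.05 unadjusted in limma. Probe 2516 had the smallest p, at -0.12 (adjusted p = 0.197).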

How the data were processed

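Blood RNA of 144 mice was hybridised to custom multi-species miRNA arrays of 10336 spots, each mouse probe spotted 3 times. The authors labelled small RNA with 1 dye and scanned it on a GenePix scanner at a PMT setting of 550. Per the file headers, the scanner files give linear, unnormalized median foreground and local background intensity for every spot. The deposited table of log2 values holds the mean background-subtracted log2 intensity of 1262 mouse probes plus 1 constant per array. Scanning covered 38 slides over 7 days, and 4 arrays were rescans after a second dip.

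Here, spots with flags above -75 were used. Background was corrected with limma 3.58.1 (R 4.3.3; normexp, offset 50), spots were averaged on the log2 scale and the 1262 probes were quantile normalized. A probe was above threshold when it exceeded the mean of 21 empty spots (10% trimmed) plus 5 SD, and 742 probes (58.8%) above it on all 8 arrays of a group were tested with lmFit and eBayes on 18 group means, with Benjamini-Hochberg adjustment. Saturation and the offset compress differences. The number of arrays limits precision. The median SE of a measured probe was 0.202 on the log2 scale between 2 groups of 8 and 0.0826 between months over all exposures. Each array is a separate animal. The fit was checked on simulated data. Files were read in Python 3.11.15.

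The probes and lists were chosen with earlier results of these data known. Probes named are the 5 of highest rank, the last, those with extreme saturation, spread or correlation, those in the largest blocks and, per comparison, called probes (at most 2 higher and 2 lower) or the one with the smallest p, with 1044 and 3024 (months), 1385, 2516 and group values of named probes added after values were seen. Alternatives were other background corrections and scalings, the deposited table, no filter, slide, scan day or position in the model, saturated spots left out, and arrays or days left out. Which probes are controls was not determined here.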

Additional observations from a re-analysis of the deposited data

Results flagged for a closer look

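Single arrays far from the rest of their group were sought for some of the named probes, in 50 combinations of a probe and a group of 8 arrays. The same arrays recur for different probes. The gap to the nearest array, divided by the range of the group, was above 0.526 in 8 of them. For normally distributed values of probes not chosen by their spread, chance alone passes that limit in about 1 in 20 groups. Some of the probes here were named for their wide spread in these same data. The 8 therefore cannot be compared with that rate, and whether they exceed chance was not tested.

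Probe 2005 accounted for 6 of the 8, each time with a single low array. At month 6 the ratio was 0.826 for 10 µg replicate 7 (9.99, nearest 14.36), 0.777 for 1 µg replicate 3 (10.80, nearest 14.02) and 0.761 for crocidolite replicate 1 (12.14, nearest 14.23). At month 12 the ratio was 0.6 for 1 µg replicate 5 (13.89, nearest 14.52), 0.578 for crocidolite replicate 3 (13.48, nearest 14.36) and 0.547 for 10 µg replicate 6 (14.23, nearest 14.62). The gaps at month 12 were thus below 1 log2 unit and those at month 6 above 2.

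For 1763 the ratio was 0.659 at month 6 for crocidolite replicate 1 (11.44, nearest 14.02), the same array as for 2005. For 3024 it was 0.59 at month 6 for DM replicate 4, the one high array among the 8 (15.12, nearest 14.47). That array was also the lowest of its group in 2005 (9.89).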

How the results depend on the processing

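Counts of called probes among the 60 were recomputed 363 times under other settings, and 345 of these counts stayed within 1.5 times. The main count was 0 in most comparisons, so most of the 345 set 0 against 0 and say little about stability. Of the 18 that moved, 16 concerned months. For DM from month 1 to month 6 (3 called), the count was 11 with background subtraction and trimmed mean scaling, 14 in the deposited table, 7 with no fold limit, 1 each with no filter, with array position as a term and with spots at the top of the scale left out, and 0 without the 2 dimmest arrays and in the 2-group test. For DM from month 1 to 12 (0 called) it was 1 with subtraction, 1 with normexp and trimmed mean scaling, 1 in the deposited table and 4 with no fold limit. For DM from month 6 to 12 (0 called) it was 3 with subtraction and 3 in the deposited table. Over all exposures, scan day as a term gave 0 from month 1 to 12 and 2 from month 6 to 12 (1 called each). For 80 µg against DM at month 6 (0 called), normexp with trimmed mean scaling gave 3, and slide as a block gave 2 for the dose trend at month 6. Under subtraction and in the deposited table the median of all tested probes moved by 0.303 and 0.318 in DM from month 1 to 6, and the cause of the other changes was not tested.

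Leaving out 1 array at a time (48 fits), the counts ran from 0 to 4 for DM from month 1 to 6, 0 to 1 for DM from month 6 to 12 (1 without month 12 DM replicate 1 or month 6 DM replicate 6) and 0 to 2 for 80 µg against DM at month 6 (2 without 80 µg replicate 4, 1 without 80 µg replicate 3 or 7 or DM replicate 1, 5, 6 or 7). Leaving out 1 scan day at a time (7 fits), they ran from 0 to 2 for months 1 to 6 (2 without day 1, 1 without day 6), 0 to 2 for months 1 to 12 and 0 to 1 for months 6 to 12. Named probes kept their direction in 470 of 473 values under the other settings. The exceptions were 1044 from month 6 to 12 (-0.013 with scan day as a term, and -0.025 to 0.042 when single days were left out), 3039 at 10 µg and month 12 (0.027 with mean foreground) and 2733 for crocidolite against 40 µg at month 1 (0.11 with top spots left out).

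By mean foreground, 277 spots of the 60 probes were at the top of the scale, against 11454 by median foreground. The median SD of the often saturated probes was 0.355 with normexp and trimmed mean scaling, 0.394 with subtraction and 0.408 in the deposited table. Pairs below -0.5 numbered 7 with trimmed mean scaling and 0 with no scaling, and pairs above 0.5 numbered 209 with no scaling. Leaving out spots by their share of saturated pixels was not run, because the files used here have no such column, and leaving out spots at the top was added after the data were seen. With it, 16 probes had no value in some groups. No paired analysis was possible because each array is a separate animal, and the labels carry no replicate numbers either.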
